A study of Rattus norvegicus with 12 samples.

Results

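Interferon-stimulated genes were followed in the uterus of 8-week-old female rats after scraping of the lining and after implantation of a printed patch. The genes were chosen by name: 41 listed symbols, which stand for 40 distinct genes of the 34034 in the count table. Of these, 39 were matched by their own symbol, and Ddx58, the sensor also called Rigi, was found under its synonym Rig1. By role, 32 are type I antiviral effectors and 8 are interferon-gamma genes or RNA sensors. A filter on low counts kept 38 for testing. Ifit1, with 2 counts over all libraries, and Oas3, with 4, were not tested.

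Each of the 4 groups holds 3 libraries of QuantSeq, which counts reads from the 3′ end of polyadenylated RNA. EEP tissue had been scraped and then given a bioprinted endometrial patch, inserted 2 days after the injury. CP tissue had been scraped and given a control patch made of Endo-UdECM without cells, likewise 2 days after the injury. AS tissue had been scraped with a bent needle and received no patch, and normal tissue was not scraped. A horn opposite an EEP horn could serve as control or carry CP, so horns of the same animal may stand in different groups, and no label ties a sample to an animal. Nothing in the labels states that replicates came from separate animals, nor when the tissue was taken, so p-values measure only the spread between these samples.

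Interferons are cytokines that switch on a shared set of genes in the cells that receive them. Type I interferons bind the receptor IFNAR1-IFNAR2 and activate a transcription factor complex that holds STAT2 and IRF9, which binds the interferon-stimulated response element (ISRE) in promoters. Genes induced by interferon-gamma often carry another element, the gamma-activated site (GAS). The induced proteins degrade viral RNA, block translation, trap virions, or raise the pathway's own sensors and transcription factors. In the uterus these genes are best known from pregnancy in ruminants, where an interferon of the conceptus induces them in the endometrium, and from interferon-epsilon, which the epithelium of the mouse reproductive tract makes without infection.

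What the members share in sequence is shown by the letters of that element. RefSeq promoter windows of the assembly GRCr8, from 250 bases before to 50 bases after the gene start, were present for 31 of the 40 members. The ISRE letters, GAAA followed by any 2 bases and GAAA again, were searched on both strands and stood in 19 of these 31 windows (61.3%), against 1131 of 27457 windows of all genes (4.12%). The GAS letters TTCNNNGAA, which read the same on both strands, stood in 9 of 31 (29.0%), against 2577 of 27457 (9.39%). Among effectors, 16 of 25 windows held the ISRE letters, and among interferon-gamma genes and sensors 3 of 6 did. A match is a description of the letters and does not show that a factor binds there.

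The following stretches surround the ISRE letters nearest the start of some of the members whose values are described here. Other described members with a match, among them Ifitm3, Rsad2, Ifi44 and Ifit3, are not printed. They are printed 5′ to 3′ on the strand of the gene, with the matched letters in capitals (TTTC, any 2 bases and TTTC is the element on the opposite strand).
Irf7: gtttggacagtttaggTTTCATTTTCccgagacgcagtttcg
Oas1a: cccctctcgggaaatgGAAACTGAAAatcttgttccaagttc
Oas1b: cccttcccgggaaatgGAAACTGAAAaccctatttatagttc
Ifi27: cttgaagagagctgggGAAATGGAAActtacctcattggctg
Bst2: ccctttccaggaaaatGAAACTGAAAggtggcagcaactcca
Parp14: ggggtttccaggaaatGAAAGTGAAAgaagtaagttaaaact
Dtx3l: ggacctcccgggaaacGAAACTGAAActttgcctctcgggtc
Eif2ak2: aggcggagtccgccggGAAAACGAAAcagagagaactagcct
Isg20: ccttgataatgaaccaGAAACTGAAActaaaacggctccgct
Gbp2: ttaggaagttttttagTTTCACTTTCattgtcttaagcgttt

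In GRCr8 these stretches lie at chr1:205800067-205800108 on the minus strand for Irf7, chr12:41330415-41330456 on the plus strand for Oas1a and chr12:41395880-41395921 on the minus strand for Oas1b. Those of Ifi27 (chr6:128355212-128355253), Parp14 (chr11:78408042-78408083), Dtx3l (chr11:78320219-78320260), Eif2ak2 (chr6:21941122-21941163), Isg20 (chr1:142239951-142239992) and Gbp2 (chr2:234005680-234005721) lie on the plus strand, and that of Bst2 (chr16:18255067-18255108) on the minus strand. The matched letters are the same in Oas1a, Oas1b, Bst2, Dtx3l and Isg20. The windows of 12 members (Mx1, Oasl, Irf1, Irf8, Irf9, Stat2, Ifi35, Parp9, Herc6, Trim25, Sp100 and Cmpk2) do not hold the ISRE letters, which says only that these letters are not in this window.

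The libraries held 4866790 to 8938227 counts, and 14250 to 18212 genes had at least 1 count. Mitochondrial genes took 18.9% of the counts in EEP 1, which stands apart at the low end, and 44.1% to 82.5% in the other libraries. Values are given as CPM, counts relative to the library total after TMM scaling, and 3 counts correspond to 0.177 to 0.867 CPM depending on the library. The TMM factors ran from 0.493 in CP 1 to 2.36 in EEP 1. They separated AS (0.658 to 0.826) from normal tissue (1.25 to 1.58), and a smaller factor raises the CPM of a library. Reads come from the 3′ end and gene levels are not compared with each other. In bulk tissue, fewer cells of a type and less RNA per cell cannot be told apart. The uterine genes Hoxa10 (40.9 to 176 CPM) and Esr1 (62.2 to 162 CPM) were present in every library. So was Myh11 (368 to 1138 CPM), which marks smooth muscle, although the labels title the tissue endometrium. The common coefficient of biological variation between replicates was 59.2%.

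Across the groups, members were lowest in normal tissue. The mean CPM of 31 of 38 members was lowest in normal tissue, where 24.8% of all 13909 tested genes had their lowest mean. Group means were highest in EEP for 20 members, in CP for 8, in AS for 10 and in normal tissue for 0. Of all tested genes, 22.3% were highest in EEP, 25.8% in CP, 27.8% in AS and 24.1% in normal tissue. The counts of CP and AS are near these shares. A score was taken by averaging log2 CPM over the 38 members and subtracting the average of all 12 libraries. It stood at 0.41, -0.35 and 0.98 in EEP 1, 2 and 3. The score was -0.28, -0.44 and 0.96 in CP, 0.24, 0.41 and -0.12 in AS, and -0.74, -0.77 and -0.30 in normal tissue. The 3 AS libraries lay above the 3 normal libraries, whereas EEP 2 and CP 2 fell below the highest normal library. The mitochondrial share of counts also separated AS (68.7%, 75.2% and 69.3%) and CP (82.5%, 66.5% and 64.8%) from normal tissue (56.5%, 50.1% and 44.1%). With that share as a covariate the median log2 fold change of the members was 0.63 in AS over normal tissue and 0.82 in CP over normal tissue, with 31 and 35 members higher.

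**Figure D1:**
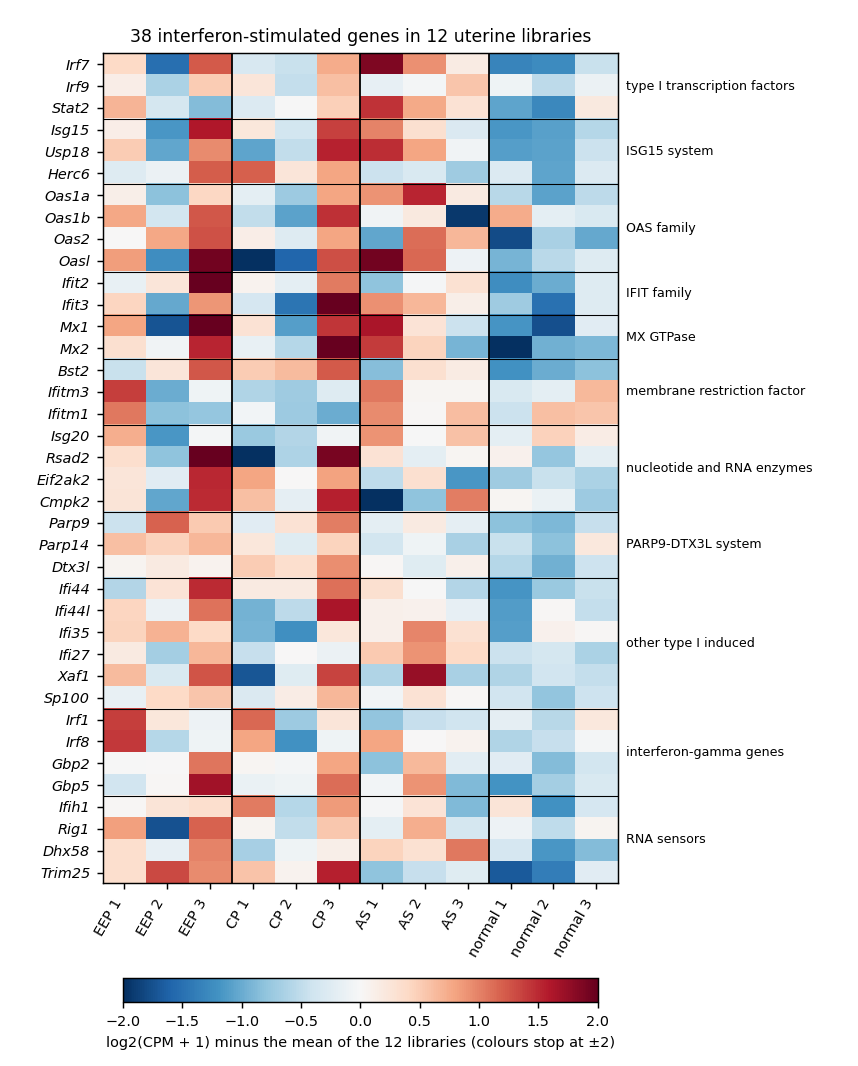
Level of each of the 38 tested members (rows, grouped by role) in each library (columns, EEP, CP, AS and normal), as log2(CPM + 1) minus the gene's mean over all 12 libraries, with colours that stop at 2 in either direction. Normal libraries are mostly below the gene mean, and EEP 3 and CP 3 are mostly above it.

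Comparing AS with normal tissue asks which members differ after scraping alone. Of 38 members, 35 had a higher and 3 a lower fitted level in AS, where 51.6% of all tested genes were higher. The median log2 fold change of the members was 0.69, against 0.03 over all genes. By class it was 0.74 over the 30 tested effectors, of which 28 were higher, and 0.48 over the 8 interferon-gamma genes and sensors, of which 7 were higher. None of the 38 passed edgeR's quasi-likelihood test at an adjusted p of 0.05, and 0.00719% of all genes did. At an unadjusted p of 0.05, edgeR had 11 members higher and 0 lower, against 2.67% and 2.88% of all genes, and DESeq2 had 11 at an unadjusted p of 0.05 (7.11% of all genes, both directions) and 0 after adjustment (0.23%). In 14 members (36.8%) every AS library lay above every normal library, as in 6.51% of all genes, and in 0 members did every AS library lie below, as in 8.26% of all genes.

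Irf7, the transcription factor that amplifies the type I response (gene ID 293624, chr1:196367380-196370943 in mRatBN7.2), had the largest fold change. The AS libraries had 90.9, 46.2 and 27.1 CPM, against 9.07, 9.51 and 17.5 CPM for the normal libraries. EEP libraries had 32.1, 7.81 and 57.5 CPM, and CP libraries had 19.1, 17.5 and 40.9 CPM. All AS libraries were above all normal libraries, and EEP 2 was below them. The log2 fold change of AS over normal tissue was 2.19 ± 0.62 (SE; edgeR adjusted p = 0.636), and 1.59 without AS 1. Stat2, a subunit of the type I signalling complex, averaged 13.3 ± 5.77 CPM in AS and 4.14 ± 3.07 CPM in normal tissue (SD, n = 3 each), and its DNA-binding partner Irf9 averaged 14.7 ± 4.45 CPM in AS and 11.0 ± 1.91 CPM in normal tissue. The AS and normal ranges of Stat2 did not overlap, and those of Irf9 did.

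The ISG15 system attaches a ubiquitin-like protein to others and removes it again. Isg15 itself, the modifier, had 29.6, 11.4 and 83.2 CPM in EEP, 31.7, 20.6 and 71.2 CPM in CP, 54.4, 34.0 and 21.7 CPM in AS, and 11.5, 12.2 and 17.7 CPM in normal tissue. Usp18, which removes ISG15 and damps the type I receptor, had 25.6, 8.11 and 35.0 CPM in EEP and 8.04, 12.3 and 53.7 CPM in CP. In AS, Usp18 had 51.1, 31.5 and 16.8 CPM, and in normal tissue 7.70, 7.91 and 12.9 CPM. For both genes every AS library was above every normal library, while EEP 2 lay below the highest normal library, as did CP 1 and CP 2 for Usp18. Usp18 had a log2 fold change of 1.80 ± 0.67 in AS over normal tissue (SE; edgeR adjusted p = 0.811), and 1.32 without AS 1.

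In the OAS family, whose active enzymes make the signal that activates RNase L, 3 of 4 tested genes were higher in AS than in normal tissue. Oas1a had 9.22, 4.35 and 11.6 CPM in EEP, 7.29, 4.70 and 15.4 CPM in CP, 16.6, 26.3 and 9.68 CPM in AS, and 5.48, 3.50 and 5.56 CPM in normal tissue. Oas2 had 8.69, 15.5 and 22.3 CPM in EEP, 9.55, 7.05 and 15.6 CPM in CP, 3.68, 19.8 and 14.2 CPM in AS, and 1.79, 5.11 and 3.74 CPM in normal tissue. Oas1a separated AS from normal tissue, and Oas2 did not because AS 1 lay among the normal libraries. Their log2 fold changes of AS over normal tissue were 1.85 ± 0.58 for Oas1a and 1.82 ± 0.63 for Oas2 (SE; edgeR adjusted p = 0.721 and 0.773). Oas1b, a paralog of Oas1a, averaged 2.59 ± 2.12 CPM in AS and 4.11 ± 2.20 CPM in normal tissue (SD, n = 3 each). Reads of closely related genes may have been split between them, so values of Oas1a and Oas1b, Mx1 and Mx2, Ifitm1 and Ifitm3 and the Ifit genes are uncertain in that respect.

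The MX GTPases, which bind viral nucleoproteins, varied widely within the scraped groups. Mx1 had 47.7, 7.51 and 113 CPM in EEP, 33.2, 12.1 and 75.0 CPM in CP, 86.4, 32.8 and 19.96 CPM in AS, and 11.4, 7.31 and 22.9 CPM in normal tissue. Mx2 had 27.3, 20.6 and 63.9 CPM in EEP, 19.4, 14.3 and 93.6 CPM in CP, 58.8, 29.7 and 10.9 CPM in AS, and 4.01, 10.6 and 11.1 CPM in normal tissue. AS and normal tissue overlapped for both genes through AS 3. Ifit3, of the family that binds foreign RNA ends, averaged 6.73 ± 2.02 CPM in AS and 2.06 ± 1.23 CPM in normal tissue (SD, n = 3 each), without overlap.

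Ifi27, a small mitochondrial protein strongly induced by type I interferon, had 443, 243 and 617 CPM in EEP, 284, 389 and 360.0 CPM in CP, 558, 722 and 512 CPM in AS, and 288, 303 and 250.2 CPM in normal tissue. The AS libraries were above those of both CP and normal tissue. Its log2 fold change of AS over normal tissue was 1.09 ± 0.37 (SE; edgeR adjusted p = 0.773), with 0.92 to 1.17 when any replicate of the compared groups was left out. The other members without overlap between AS and normal tissue were Oasl, Irf8, Dhx58, Ifi35, Parp9, Dtx3l and Sp100. Irf1, the early interferon-gamma factor, and Parp14 were, with Oas1b, the 3 members with a lower fitted level in AS.

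Among these values, AS 1 had the highest summed level of the 14 macrophage and monocyte markers, 2718 CPM, against 961 and 504 CPM in AS 2 and 3 and 370.4 to 499 CPM in normal tissue. None of the 14 was at 0 in all libraries. The 10 T and NK cell markers summed to 29.1 to 51.8 CPM in AS and 24.1 to 99.6 CPM in normal tissue. AS 1 also had the highest erythrocyte (2810 CPM), uterine epithelium (1967 CPM) and smooth muscle (6771 CPM) marker sums of all libraries. Its dendritic cell marker sum was the lowest (186 CPM). In AS 2 and 3 the erythrocyte sums were 200 and 407 CPM and the epithelium sums 122 and 175 CPM. The part of these cells and tissue shares in the interferon-stimulated genes was not tested. Without the low-count filter, 4 members passed in AS over normal tissue (Mx1, Mx2, Irf7 and Usp18) while 154 genes were called over the whole table, against 1 with the filter.

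**Figure D2:**
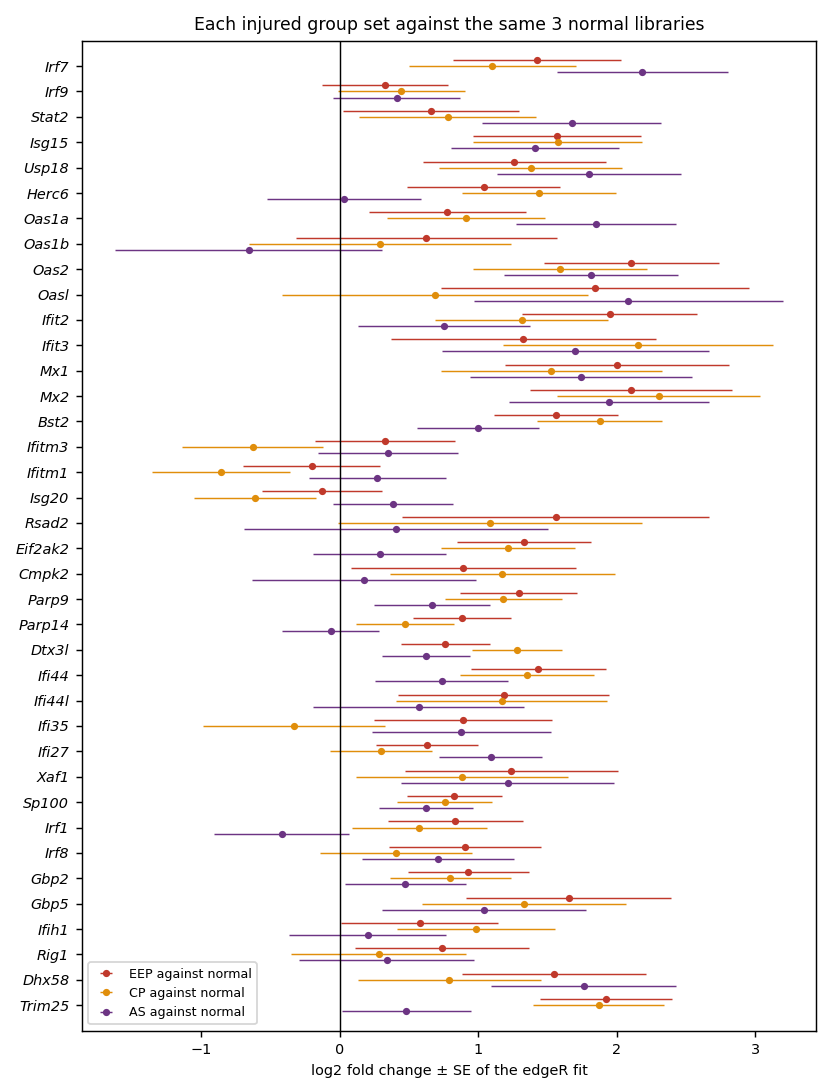
Log2 fold change of each tested member in EEP, CP and AS over normal tissue, from edgeR, with standard errors as bars. Points lie to the right of 0 for 36 members in EEP, 34 in CP and 35 in AS, and no point passed the adjusted p of 0.05.

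Setting the patch groups against normal tissue uses the same 3 normal libraries as above, so the 3 comparisons are not independent. In EEP, 36 of 38 members were higher than in normal tissue, where 49.7% of all genes were higher, with a median log2 fold change of 1.11 against -0.01 over all genes. Effectors had a median of 1.21, and interferon-gamma genes and sensors 0.92. None passed edgeR, where 0.00719% of all genes did. At an unadjusted p of 0.05, edgeR had 17 higher and 0 lower, against 4.80% and 2.76% of all genes. DESeq2 had 17 at the unadjusted p (9.35% of all genes) and called 1, Trim25 (0.539% of all genes). In 15 members (39.5%) every EEP library was above every normal library, as in 6.14% of all genes, and in 0 below (8.44% of all genes).

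In CP, 34 of 38 members were higher than in normal tissue, where 48.4% of all genes were higher, and the median log2 fold change was 1.04, against -0.04 over all genes. Effectors had a median of 1.14, and interferon-gamma genes and sensors 0.80. Again 0 passed edgeR, as did 0% of all genes, and the unadjusted p of 0.05 was met by 12 higher and 0 lower members, against 6.77% and 5.88% of all genes. DESeq2 had 15 at the unadjusted p (15.4% of all genes) and called 3, Bst2, Dtx3l and Trim25 (1.97% of all genes). In 14 members (36.8%) every CP library was above every normal library, as in 13.1% of all genes, and in 0 below (14.8% of all genes). Without CP 3 the median was 0.51 and 27 of 38 members were higher.

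Bst2 (tetherin), which holds budding virions at the cell surface, had 24.7, 40.4 and 82.1 CPM in EEP, 48.5, 53.0 and 80.5 CPM in CP, 18.4, 42.6 and 38.1 CPM in AS, and 14.1, 16.6 and 18.8 CPM in normal tissue. All patch libraries were above all normal libraries, and AS 1 was not. The log2 fold changes over normal tissue were 1.56 ± 0.45 in EEP (SE; edgeR adjusted p = 0.464) and 1.88 ± 0.45 in CP (edgeR adjusted p = 0.192).

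Trim25, the ubiquitin ligase that activates the sensor RIG-I (gene ID 494338, chr10:73812818-73831271 in mRatBN7.2), had 45.7, 91.1 and 69.7 CPM in EEP. CP libraries had 54.0, 37.8 and 107 CPM, AS libraries 20.1, 25.7 and 30.04 CPM, and normal libraries 10.5, 13.2 and 30.5 CPM. All 6 patch libraries lay above all AS and normal libraries, and the share of all genes with this split was not counted. The 6 smooth muscle markers split the same libraries the other way, with sums of 1222 to 2615 CPM in EEP and 2072 to 2845 CPM in CP, against 3939 to 6771 CPM in AS and 3460 to 3727 CPM in normal tissue. The 9 stroma markers summed to 2014 to 5627 CPM in EEP and 2934 to 4548 CPM in CP, against 4259 to 5905 CPM in AS and 4959 to 6692 CPM in normal tissue. The part of these tissue shares in Trim25 and the other members was not tested. Over normal tissue the log2 fold change was 1.92 ± 0.48 in EEP (SE; edgeR adjusted p = 0.443) and 1.87 ± 0.47 in CP (edgeR adjusted p = 0.192).

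PARP9 and DTX3L form a complex that modifies histones, and their genes overlap on opposite strands of chromosome 11. Parp9 had 73.1, 225 and 143 CPM in EEP, 84.0, 121 and 203 CPM in CP, 86.4, 112 and 87.0 CPM in AS, and 55.6, 52.6 and 71.6 CPM in normal tissue. Dtx3l had 37.2, 40.98 and 37.9 CPM in EEP, 51.3, 45.5 and 69.3 CPM in CP, 36.5, 30.1 and 38.5 CPM in AS, and 23.7, 17.9 and 26.7 CPM in normal tissue. For both genes all 9 libraries of scraped uteri were above all normal libraries. The overlap, chr11:64814926-64814995 in mRatBN7.2, lies at the 5′ start of both genes, whereas QuantSeq reads come from the 3′ end. Whether counting used strand is not given in the sources used here, so any reads of the overlap may have gone to either gene. In all, 7 members overlap another gene of the count table, among them Mx2 with Tmprss2 and Xaf1 with Fbxo39. Sp100, a nuclear body protein, was the other member with this pattern, at 68.3, 100.1 and 112 CPM in EEP, 62.3, 84.3 and 121 CPM in CP, 73.0, 93.4 and 77.5 CPM in AS, and 58.2, 43.4 and 56.5 CPM in normal tissue. These 3 are 7.89% of the tested members, and 0.633% of all genes had the pattern.

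The calls against normal tissue changed with the setting. Leaving out EEP 1, the library with few mitochondrial reads, 3 members passed in EEP (Bst2, Parp9 and Trim25) and 200 genes passed in the whole table, and with CP and normal libraries fitted alone 5 members passed in CP (Ifi44, Bst2, Dtx3l, Eif2ak2 and Trim25) among 585 genes.

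Comparing EEP with AS asks what differed in scraped uteri that had received the patch with cells. Members were mixed: 26 were higher and 12 lower in EEP, where 50.9% of all genes were higher, with a median log2 fold change of 0.23 against 0.02 over all genes. The median was 0.16 in effectors and 0.43 in interferon-gamma genes and sensors. None passed edgeR, where 0.0144% of all genes did. At an unadjusted p of 0.05, edgeR had 4 higher and 0 lower (4.97% and 5.17% of all genes), and DESeq2 had 4 (12.3% of all genes, both directions), with 0 after adjustment (1.01%). Every EEP library was above every AS library for 4 members (10.5%; 6.18% of all genes), which were Trim25, Parp14, Irf1 and Herc6. Without EEP 3 the median was -0.02, and without AS 2 it was 0.44.

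Trim25, with the values given above, had a log2 fold change of 1.44 ± 0.47 in EEP over AS (SE; edgeR adjusted p = 0.374). Parp14, an ADP-ribosyltransferase of the interferon response, had 58.3, 53.3 and 61.0 CPM in EEP, 45.0, 32.2 and 52.5 CPM in CP, 29.3, 35.9 and 24.1 CPM in AS, and 27.9, 21.1 and 44.3 CPM in normal tissue. EEP libraries were above the libraries of every other group for this gene, a pattern whose share over all genes was not counted. The log2 fold change of Parp14 in EEP over AS was 0.95 ± 0.36 (SE; edgeR adjusted p = 0.397). Irf1 had 61.7, 27.0 and 21.4 CPM in EEP, 52.03, 13.4 and 27.2 CPM in CP, 12.9, 16.3 and 17.2 CPM in AS, and 20.1, 15.3 and 26.6 CPM in normal tissue. Its log2 fold change of EEP over AS was 1.26 ± 0.50 (SE; edgeR adjusted p = 0.411), and 0.64 without EEP 1.

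Eif2ak2 encodes PKR, the kinase that stops translation on double-stranded RNA. It had 28.7, 20.6 and 70.2 CPM in EEP, 42.5, 24.2 and 43.004 CPM in CP, 16.7, 30.5 and 10.3 CPM in AS, and 14.3, 17.5 and 15.3 CPM in normal tissue. Ifit2, another binder of foreign RNA, had 8.51, 11.6 and 41.3 CPM in EEP, 10.1, 8.23 and 20.7 CPM in CP, 5.02, 9.40 and 12.1 CPM in AS, and 3.48, 4.30 and 7.87 CPM in normal tissue. EEP overlapped AS for both genes, with EEP 3 far above the other EEP libraries. The log2 fold changes of EEP over AS were 1.05 ± 0.48 for Eif2ak2 and 1.20 ± 0.62 for Ifit2 (SE; edgeR adjusted p = 0.481 and 0.543), and without EEP 3 they were 0.42 and 0.23. Without AS 2 that of Eif2ak2 was 1.58.

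In the 3 type I transcription factors the fitted levels were lower in EEP than in AS for all 3 genes (median -0.76 on the log2 scale, no call). Irf9 was nearly level, with a log2 fold change of -0.09 ± 0.46 (SE). Irf7 averaged 32.5 ± 24.9 CPM in EEP and 54.7 ± 32.8 CPM in AS, and Stat2 6.42 ± 4.16 CPM in EEP and 13.3 ± 5.77 CPM in AS (SD, n = 3 each). Their ranges overlapped. All 4 interferon-gamma genes among the members (Irf1, Irf8, Gbp2 and Gbp5) had higher fitted levels in EEP than in AS, with a median of 0.53 and no call. A further 12 tested genes induced by interferon-gamma, not among the members, were mixed. Of these, 6 were higher and 6 lower in EEP than in AS, with a median of -0.06.

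CP against AS asks the same of the patch printed without cells. Here 22 members were higher and 16 lower, where 49.2% of all genes were higher, and the median log2 fold change was 0.23 against -0.02 over all genes. None passed edgeR, where 0.00719% of all genes did. At an unadjusted p of 0.05, edgeR had 2 higher and 3 lower (5.28% and 6.71% of all genes), and DESeq2 had 6 (14.7% of all genes, both directions), with 0 after adjustment (0.892%). These counts are near the shares of all genes. Every CP library was above every AS library for 4 members (8.73% of all genes) and below it for 5 (9.22% of all genes). The higher ones were Bst2, Dtx3l, Herc6 and Trim25, and the lower ones Isg20, Dhx58, Ifi27, Ifitm3 and Ifitm1. Without CP 3 the median turned to -0.52, and without CP 2 it was 0.52.

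Trim25 had a log2 fold change of 1.39 ± 0.47 in CP over AS (SE; edgeR adjusted p = 0.312), and 0.88 without CP 3. Herc6, the rodent ligase that attaches ISG15, had 6.33, 7.05 and 19.4 CPM in EEP, 19.1, 9.40 and 14.1 CPM in CP, 5.53, 6.14 and 4.35 CPM in AS, and 6.22, 3.20 and 6.24 CPM in normal tissue. All CP libraries were above all AS and normal libraries, with a log2 fold change of 1.40 ± 0.56 over AS (SE; edgeR adjusted p = 0.352).

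On the lower side, Isg20, an exonuclease that degrades RNA, had 61.8, 16.1 and 36.1 CPM in EEP, 21.9, 24.3 and 35.4 CPM in CP, 69.8, 37.0 and 56.1 CPM in AS, and 32.4, 51.5 and 41.1 CPM in normal tissue. Ifitm1, which blocks virus entry at the cell membrane, had 155, 41.6 and 43.1 CPM in EEP, 71.6, 44.5 and 36.9 CPM in CP, 143, 75.8 and 115 CPM in AS, and 54.7, 113 and 109 CPM in normal tissue. For both genes the CP libraries were below the AS libraries. The log2 fold changes of CP over AS were -0.997 ± 0.44 for Isg20, -1.13 ± 0.50 for Ifitm1 and -0.79 ± 0.37 for Ifi27 (SE; edgeR adjusted p = 0.389, 0.390 and 0.408).

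**Figure D3:**
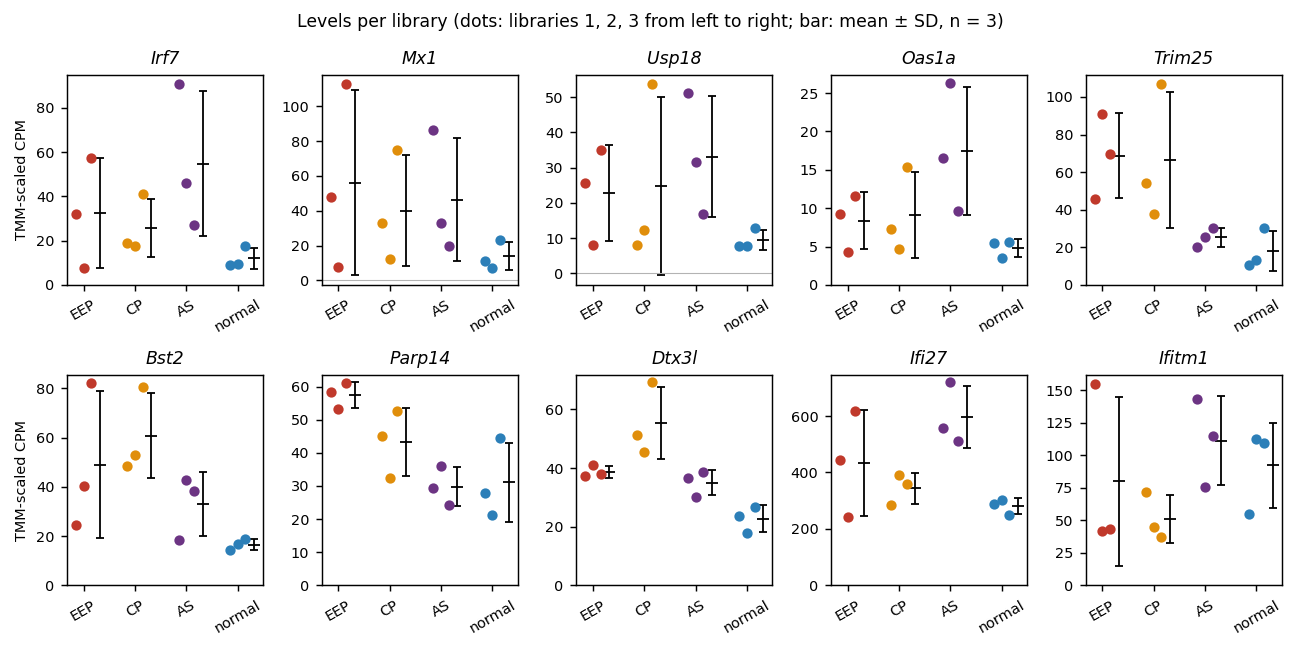
CPM of single members in each library (points) of EEP, CP, AS and normal tissue, with the group mean ± SD (n = 3) as a black bar, on a linear axis per gene. Trim25 lies at 37.8 CPM or more in the 6 patch libraries and at 30.5 CPM or less in the other 6, while Irf7 has its highest value, 90.9 CPM, in AS 1.

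EEP against CP bears on what the cells in the patch add to the printed carrier. Of 38 members 26 were higher and 12 lower in EEP, where 52.7% of all genes were higher, with a median log2 fold change of 0.20 against 0.04. None passed edgeR or DESeq2, as for 0% of all genes with edgeR, and 0 met an unadjusted p of 0.05 in either tool (edgeR: 1.87% of all genes higher and 1.12% lower; DESeq2: 4.03% in both directions). Every EEP library was above every CP library for 2 members, Ifi35 and Parp14 (3.87% of all genes), and below for 1, Dtx3l (3.07%). A difference between the patches was not detectable in any member at this spread. The median ran between -0.32 without EEP 3 and 0.64 without CP 3.

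Ifi35, an interferon-induced leucine zipper protein, had 7.51, 9.16 and 7.23 CPM in EEP, 2.26, 1.68 and 6.28 CPM in CP, 5.69, 11.3 and 6.72 CPM in AS, and 1.90, 5.61 and 5.37 CPM in normal tissue. Its log2 fold change of EEP over CP was 1.22 ± 0.66 (SE; edgeR adjusted p = 0.9997), and Dtx3l had -0.52 ± 0.32 and Parp14 0.41 ± 0.35 with the same adjusted p. Without CP 3 the value of Ifi35 was 2.04 and that of Dtx3l -0.30, and without CP 2 that of Parp14 was 0.25. Ifitm3, which blocks virus entry in endosomes, had 422, 81.1 and 152 CPM in EEP, 106, 98.0 and 135 CPM in CP, 336, 166 and 165 CPM in AS, and 130, 141 and 252 CPM in normal tissue. EEP 1 and EEP 3 were above every CP library, EEP 1 by far the most, and EEP 2 was below every CP library. The log2 fold change of Ifitm3 in EEP over CP was 0.95 ± 0.51 (SE; edgeR adjusted p = 0.9997) and 0.04 without EEP 1. For Ifitm1 it was 0.65 ± 0.50, and -0.27 without EEP 1.

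Within each patch group a single library carried the highest values of most members. EEP 3 was the highest EEP library for 28 of 38 members, where 29.8% of all genes had their highest EEP value in it, and CP 3 was the highest CP library for 32, where the share of all genes was 33.8%. These libraries were the 2 highest of the 6 patch libraries for 22 of 38 members (57.9%), as for 7.43% of all genes. This pattern was chosen after the values were seen, and no label states whether EEP 3 and CP 3 came from the same animal. It held for Isg15, Mx1, Mx2, the 4 tested OAS genes, both tested IFIT genes, Irf7, Irf9, Usp18, Rsad2, Cmpk2 and the guanylate-binding proteins Gbp2 and Gbp5, among others, and not for Trim25, Parp14, Dtx3l, Irf1, Irf8 or the IFITM genes.

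Rsad2 (viperin), which makes a chain-terminating nucleotide, had 4.85, 1.65 and 19.7 CPM in EEP and 0, 2.01 and 16.4 CPM in CP, against 4.69, 3.07 and 3.76 CPM in AS and 3.90, 1.70 and 3.07 CPM in normal tissue. Gbp2, a GTPase induced by interferon-gamma, had 37.4, 37.97 and 80.1 CPM in EEP, 38.7, 36.8 and 65.8 CPM in CP, 20.9, 59.7 and 32.4 CPM in AS, and 31.95, 20.1 and 29.2 CPM in normal tissue. Ifi44, a cytoplasmic interferon-induced protein, had 25.7, 47.7 and 113 CPM in EEP, 44.7, 44.5 and 85.6 CPM in CP, 49.2, 39.1 and 25.7 CPM in AS, and 16.9, 23.1 and 28.5 CPM in normal tissue. In all 3 genes EEP 3 and CP 3 were the highest of the 12 libraries.

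The summed macrophage and monocyte markers were 929, 358 and 801 CPM in EEP 1, 2 and 3 and 611, 487 and 1159 CPM in CP 1, 2 and 3. In CP the marker sums stood in the same order as the member scores, while in EEP the highest sum was in EEP 1 and the highest score in EEP 3. T and NK cell markers summed to 31.8 to 33.9 CPM in EEP and 29.7 to 40.5 CPM in CP. Neutrophil markers summed to 10.6, 22.5 and 51.2 CPM in EEP and 12.6, 21.8 and 21.1 CPM in CP. Endothelial markers summed to 19.6, 70.7 and 172 CPM in EEP and 77.7, 99.6 and 99.7 CPM in CP. EEP 3 thus had the highest neutrophil and endothelial sums of the 12 libraries, and it had the lowest smooth muscle (1222 CPM) and stroma (2014 CPM) sums, while CP 3 had the highest stroma sum of CP. EEP 3 had 76.3% and CP 3 64.8% mitochondrial counts, against 18.9% and 53.6% in EEP 1 and 2 and 82.5% and 66.5% in CP 1 and 2. The part of cell mixture and RNA quality in the pattern was not tested.

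**Figure D4:**
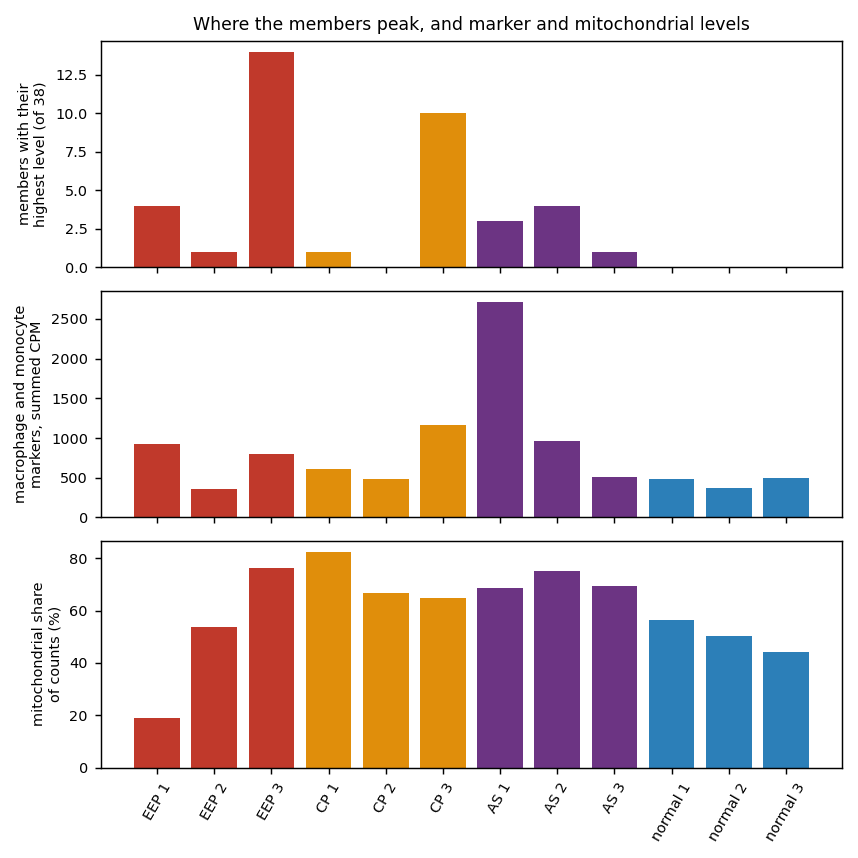
For each library of EEP, CP, AS and normal tissue, bars give the number of the 38 members with their highest level there (top), the summed CPM of the macrophage and monocyte markers (middle) and the mitochondrial share of counts in percent (bottom). EEP 3 holds the highest level of 14 members and CP 3 of 10, while the marker sum is highest in AS 1 (2718 CPM) and the mitochondrial share lowest in EEP 1 (18.9%).

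Upstream of the members, the interferons themselves were at the edge of detection. Of 11 listed interferon genes 10 were in the table, 8 of these had 0 counts in all 12 libraries, and the other two, Ifne and Ifnk, had 10 counts in all. A count of 0 allows at most 0.177 to 0.867 CPM depending on the library, so levels below that were not detectable at this depth. The 6 receptor genes had 0 calls in any comparison, with median log2 fold changes of 0.60 in EEP over AS, 0.92 in CP over AS, -0.29 in EEP over CP and -0.27 in AS over normal tissue. In CP over AS 5 of the 6 were higher, including Ifnar1 at 0.82 and Ifnar2 at 1.02, the chains of the type I receptor.

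Of 13 tested nucleic acid sensing genes and 12 tested further interferon-gamma-induced genes, none passed edgeR in any of the 6 comparisons. Socs3, a feedback inhibitor of cytokine receptors, had a log2 fold change of -1.52 in EEP over AS (edgeR adjusted p = 0.411) and -1.61 in CP over AS (edgeR adjusted p = 0.335). Tyk2, the kinase bound to IFNAR1, had 1.55 ± 0.56 in CP over AS (SE; edgeR adjusted p = 0.318), and Ikbke, a kinase of the interferon regulatory factors, 2.58 ± 0.80 (edgeR adjusted p = 0.294). Tyk2 had 35.9, 12.6 and 14.5 CPM in CP and 7.37, 11.3 and 2.77 CPM in AS. Ikbke had 16.1, 5.54 and 4.76 CPM in CP and only 2.18, 1.15 and 0.988 CPM in AS. In both genes CP 1, which had the highest mitochondrial share and the smallest TMM factor, lay far above CP 2 and CP 3. The further interferon-gamma-induced genes were higher for 10 of 12 in EEP, 11 of 12 in CP and 9 of 12 in AS over normal tissue, with median log2 fold changes of 0.54, 0.82 and 0.77. Over AS, 6 of 12 were higher in EEP and 8 of 12 in CP, with medians of -0.06 and 0.28.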

How the data were processed

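Total RNA of rat uterus (1000 ng) was made into QuantSeq libraries and read as single-end 75 bp reads, per the labels' protocols and the design text. The authors deposited raw counts per gene, made with Bowtie2 and bedtools per the submitters' processing notes. The deposited workbook names the build mRatBN7.2, the processing notes name mm10, and the gene symbols are those of the rat. Versions are not given in the sources used here.

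Counts of the 12 libraries were fitted together with edgeR 4.0.16 in R 4.3.3, with limma 3.58.1 installed: filterByExpr (13909 genes tested), TMM scaling and the quasi-likelihood test, with Benjamini-Hochberg adjustment over all genes tested. Totals were 4866790 to 8938227 counts, and floors cover counting error only. The fit was run on simulated data with planted changes larger than any fitted for a member. That run does not show whether changes of the members' size could be found. Alternatives were DESeq2 1.42.0, other scalings and filters, 2 groups alone, a replicate block, mitochondrial genes removed or as covariate, and leaving out each library. Same-numbered libraries of 2 groups correlated at -0.09 to 0.36 over 18 pairs, and the numbers were not taken to pair samples. The same-numbered library was the best correlated of its group in 9 of these pairs. Among them were all pairs of EEP and CP, at 0.05, 0.01 and 0.10. Whether EEP and CP libraries of the same number share an animal was not tested, and the main fit treats them as independent.

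The members and lists were chosen with earlier results of these data known. Values in all 12 libraries are given for the 5 members with the smallest unadjusted p in AS against normal, EEP against AS, CP against AS and EEP against CP. Further members, such as Bst2, Parp9, Sp100, Rsad2 and Ifi44, were chosen after their values were seen. RefSeq (GRCr8) gave promoter windows, and gene coordinates are those of the file (mRatBN7.2).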

Additional observations from a re-analysis of the deposited data

How the results depend on the processing

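Limits were set as follows. A count had to stay at 0, and a median had to move by less than the pooled SD of the member score (0.27 to 0.72 by comparison). A single member had to keep its sign and its status as called or not, whatever its size. Of 168 alternative values of the member counts and medians, 160 stayed within these limits, and of 280 for single members 276 did. In EEP over AS, CP over AS and EEP over CP the limit (0.51, 0.58 and 0.72) was wider than the median itself (0.23, 0.23 and 0.20). A median there could change sign and still stay within the limit, so the share does not show that these medians were stable. Medians changed sign in 2 alternatives in EEP over CP, 1 in EEP over AS and 2 in CP over AS. The number of members called in EEP over normal tissue was 1 with DESeq2, 3 without the low-count filter and 0 to 3 when a replicate was left out, against 0. In CP over normal tissue it was 3 with DESeq2, 5 without the filter and 5 with the 2 groups alone, and in AS over normal tissue 4 without the filter. Genes called over the whole table moved as well without the filter, to 154 in AS, 232 in EEP and 445 in CP over normal tissue, and with DESeq2 to 32, 75 and 274. The median of CP over AS ran from -0.52 (without CP 3) to 0.52 (without CP 2), that of EEP over AS from -0.02 (without EEP 3) to 0.44 (without AS 2), that of CP over normal tissue from 0.51 (without CP 3) to 1.32 (without CP 2). Ifitm1 in EEP over CP ran from -0.27 (without EEP 1) to 0.99 (without CP 1) and turned to -0.30 with the mitochondrial share as covariate. With the replicate number as a block, 0 members were called in all 6 comparisons, and the medians were 0.66 in AS over normal tissue, 0.17 in EEP over AS, -0.08 in CP over AS and 0.19 in EEP over CP. The cause was not tested.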
